A study of Mus musculus with 4 samples.

Results

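The helix-loop-helix inhibitor genes Id1, Id2, Id3 and Id4, the repressor gene Snai1 and the homeobox genes Tgif1 and Gsc were followed in growing and fully grown mouse oocytes that carried or lacked an oocyte deletion of Dcaf13, a gene for a substrate receptor of a CUL4 ubiquitin ligase. The 7 genes were taken by symbol, and each had 1 row among the 23235 genes of the table. They had been proposed from these same values, so their levels and changes are a description, with no test. The fully grown deletion group held Dcaf13fl/fl;Gdf9-Cre oocytes from C57B6 mice, given as 23 days old in the source label and as 3 weeks old in the description, 48 h after 5 IU of PMSG, a gonadotropin from mare serum that makes follicles grow. The fully grown control group held Dcaf13fl/fl oocytes of the same age, background and PMSG treatment, without Cre. The growing deletion group held Dcaf13fl/fl;Gdf9-Cre oocytes and the growing control group Dcaf13fl/fl oocytes, from C57B6 mice of 13.5 to 14.5 days, for which no PMSG is stated. All 4 groups carried the floxed alleles, and the Gdf9 promoter drives Cre in oocytes only, so follicle cells are not its target. Each group was 1 library of 10 pooled oocytes, made by Smart-seq2 from polyadenylated RNA, and whether a pool came from 1 mouse or several is not stated.

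Id proteins carry a helix-loop-helix domain without the basic region that touches DNA, and they hold E proteins such as the product of Tcf3 away from their E-box sites. Their genes are classic targets of bone morphogenetic protein (BMP) signals through SMAD proteins, and the oocyte itself makes the related ligands Gdf9 and Bmp15. Snai1 encodes a zinc finger repressor that binds E-boxes and is known for silencing the cadherin gene Cdh1, Tgif1 encodes a homeodomain corepressor that binds SMAD proteins, and Gsc (goosecoid) encodes a homeodomain protein induced by activin and nodal signals in the early embryo.

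Levels are in FPKM, which scales the fragments of a gene by its length and by the library, so they are shares of the RNA and not amounts per oocyte. In a pool of oocytes, fewer cells with an RNA and less of it per cell cannot be told apart. The values were re-paired with the symbols, since the deposited symbol and value columns run in different sort orders. In the rows within 500 of each gene, the smallest value above 0 of genes under 1 FPKM, roughly the worth of 1 read, was lower for longer transcripts, with Spearman's rho across 253 to 313 genes between -0.44 and -0.33 after re-pairing and between -0.23 and -0.11 as deposited. The 18 oocyte markers had a median of 1473 FPKM after re-pairing and 8.62 as deposited. Dcaf13, whose row is the same in both pairings, stood at 64.0 FPKM in the fully grown deletion library against 160.2 in the fully grown control, and at 38.9 in the growing deletion library against 96.1 in the growing control. Its RNA was lower in both deletion libraries but not absent, and a gene-wide value cannot tell whether the floxed exons are gone.

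The members reaching 5 FPKM in any library were Id3 (chromosome 4, plus strand, 135699737 to 135701307, mm9), Snai1 (chromosome 2, plus strand, 167363727 to 167368311), Tgif1 (chromosome 17, minus strand, 71193545 to 71201074) and Gsc (chromosome 12, minus strand, 105709419 to 105711446). The 250 bases before their RefSeq start sites are shown because these are the genes whose levels differed most between stages. The sequences are from RefSeq on build GRCm38.p6, 5′ to 3′ on the gene's strand, with chr4:136143572-136143821 for Id3, chr2:167537945-167538194 for Snai1, chr17:70853533-70853782 for the most upstream of 5 Tgif1 start sites and chr12:104473237-104473486 for Gsc. Capitals mark the E-box CANNTG, the SMAD box CAGAC and the TGIF site TGTCA on either strand.
Id3: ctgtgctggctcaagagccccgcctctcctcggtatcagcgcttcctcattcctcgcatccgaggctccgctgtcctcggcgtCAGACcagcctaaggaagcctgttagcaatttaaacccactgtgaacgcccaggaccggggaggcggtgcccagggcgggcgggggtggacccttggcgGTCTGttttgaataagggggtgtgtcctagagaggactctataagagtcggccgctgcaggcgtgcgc
Snai1: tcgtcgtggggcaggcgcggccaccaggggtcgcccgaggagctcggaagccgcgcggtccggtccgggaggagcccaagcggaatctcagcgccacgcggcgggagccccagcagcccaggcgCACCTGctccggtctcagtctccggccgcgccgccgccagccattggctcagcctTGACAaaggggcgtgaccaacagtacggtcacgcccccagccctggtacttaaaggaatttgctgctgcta
Tgif1: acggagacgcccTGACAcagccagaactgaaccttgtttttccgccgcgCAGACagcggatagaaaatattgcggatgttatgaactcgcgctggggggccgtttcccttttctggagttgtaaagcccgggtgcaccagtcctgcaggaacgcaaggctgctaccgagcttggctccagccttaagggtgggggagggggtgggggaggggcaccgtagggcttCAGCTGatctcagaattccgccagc
Gsc: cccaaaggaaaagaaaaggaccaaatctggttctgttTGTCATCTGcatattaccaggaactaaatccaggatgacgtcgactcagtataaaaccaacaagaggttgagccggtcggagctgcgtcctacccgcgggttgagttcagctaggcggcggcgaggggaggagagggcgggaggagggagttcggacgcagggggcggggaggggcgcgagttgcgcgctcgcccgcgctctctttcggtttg
No motif was present in all 4 windows. The windows were 62.8% (Id3), 70.0% (Snai1), 59.6% (Tgif1) and 59.2% (Gsc) GC, against a median of 52.4% over all promoters. Id3 had SMAD boxes at -167 and -68 from the start site and no E-box, while Snai1 had an E-box of the form CACCTG, the letters Snail proteins and E proteins bind, at -126 and a TGIF site at -71. Tgif1 had a TGIF site at -238, a SMAD box at -201 and an E-box at -25, and in Gsc a TGIF site at -213 overlapped an E-box at -210. Among 32841 RefSeq promoter windows of the same length, 66.2% held the E-box, 42.2% the SMAD box, 40% the TGIF site and 17.2% CACCTG, so these matches are common letters and describe no bound site. The BMP SMAD element GGCGCC, found in 9.59% of windows, stood at -231 in Id2 and -148 in Id4 and in none of the windows above. No cAMP response element TGACGTCA, held by 1.55% of windows, was found in the 6 genes with an entry (Id1 had none in the table). The bicoid-type homeobox site TAATCC, held by 6.25%, stood in 1 of the 5 Tgif1 windows. CACCTG is a form of CANNTG, and the other motifs were counted apart from it, with overlaps allowed.

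Of the Id genes, Id3 was the one that oocytes held in quantity. Id3 stood at 13.1 FPKM in the fully grown deletion library and 20.3 in the fully grown control, against 98.1 in growing deletion and 106.8 in growing control. Both growing libraries were high and both fully grown libraries low, with the deletion below its control at each stage. Id3 made up 77.7%, 77.3%, 94.8% and 95.3% of the summed FPKM of the 4 Id genes in the same order of libraries. In rank by FPKM it was gene 4806 in the fully grown deletion library and 3728 in the fully grown control, against 1229 and 1103 in growing deletion and growing control. Tcf3, the E protein gene whose product Id proteins bind, stood at 10.7, 7.34, 16.5 and 9.81 FPKM in that order, and the ratio of Id3 to Tcf3 FPKM was 1.22 in the fully grown deletion library and 2.77 in the fully grown control, against 5.96 in growing deletion and 10.9 in growing control.

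Id1 and Id2 were low and lay on opposite sides of control at both stages. Id1 stood at 2.77 FPKM in the fully grown deletion library against 1.20 in its control, and at 3.55 in growing deletion against 1.98 in its control. Id2 stood at 1.01 FPKM in the fully grown deletion library against 4.78 in its control, and at 1.74 in growing deletion against 3.24 in its control. Both deletion libraries were above both controls for Id1 and below both controls for Id2, at levels under 5 FPKM where single libraries are least precise. Id1 lies on chromosome 2 (plus strand, 152562010 to 152563146, mm9), Id2 on chromosome 12 (minus strand, 25778664 to 25780957) and Id4 on chromosome 13 (plus strand, 48356796 to 48359405). Id4 was listed at 0 in both fully grown libraries and stood at 0.122 FPKM in growing deletion and 0.0821 in growing control, near nothing throughout.

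Snai1 stood at 5.73 FPKM in the fully grown deletion library and 5.90 in the fully grown control, against 36.8 in growing deletion and 26.1 in growing control. The stages were far apart and the fully grown libraries nearly level. Tgif1 stood at 3.81 and 7.58 FPKM in the fully grown deletion and control libraries, and at 31.1 and 24.99 in growing deletion and growing control. It was the lowest in the fully grown deletion library and the highest in growing deletion. Gsc stood at 2.72 and 4.15 FPKM in the fully grown deletion and control libraries, and at 23.4 and 8.004 in growing deletion and growing control. Its growing deletion value stood apart from the other 3 libraries.

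**Figure D1:**
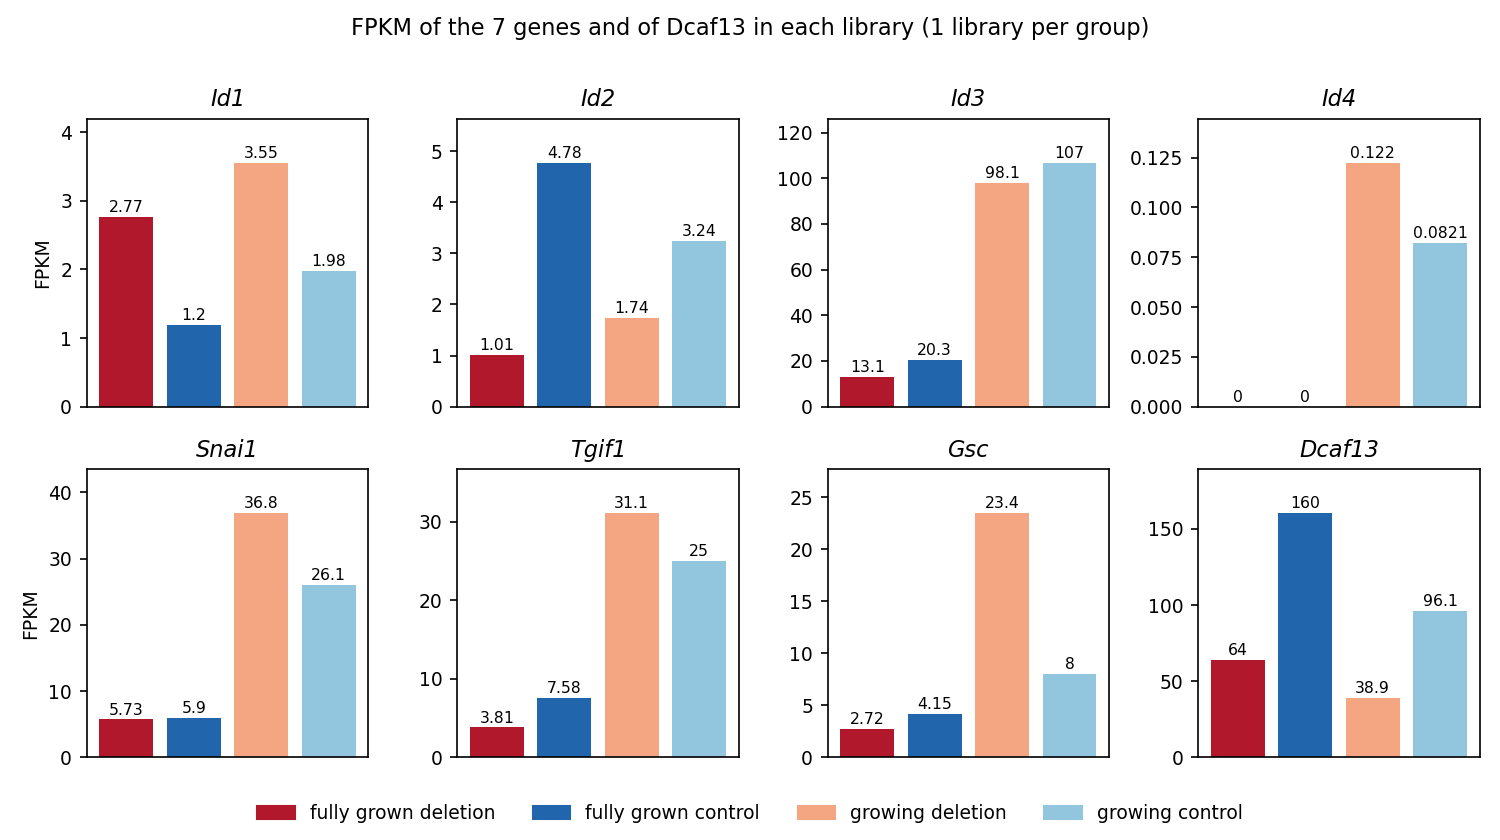
FPKM of the 7 genes and of Dcaf13 in the 4 libraries, 1 bar per library and an own axis from 0 for each gene. Id3, Snai1 and Tgif1 are high in both growing libraries, Gsc stands at 23.4 FPKM in the growing deletion library alone, and Id1 and Id2 stay under 5 FPKM.

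Each change is a difference in log2(FPKM + 1), which makes the change of low genes look smaller than it is. The words higher or lower by the size rule mean a difference of 1 or more in size, for genes that reached 5 FPKM in either library. This size rule compares single libraries and gives no error.

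The comparison of fully grown with growing oocytes sets single pools from each stage side by side, and age and PMSG cannot be told apart from stage in it. The libraries were made from polyadenylated RNA, so the values describe that part of the RNA only. In deletion oocytes 4 of the 7 genes were lower in the fully grown library by the size rule, where 8.75% of all genes at the minimum were. In control oocytes 3 of the 7 were lower, where 3.07% of all genes were. None was higher, where 2.7% of all genes were in deletion and 1.11% in control oocytes. The median difference of the 7 genes was -2.49 in deletion and -0.81 in control oocytes, beside -0.071 and -0.058 over all genes at the minimum. Of the 7, only 4 met that minimum in each comparison, so these medians are over unlike sets. The 7 genes were chosen from such values, so the counts are read as no more than how they were chosen.

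Id3 was lower at the fully grown stage by 7.49-fold in deletion oocytes (a difference of -2.81) and by 5.25-fold in control oocytes (-2.34). Snai1 was lower by 6.43-fold in deletion oocytes (-2.49) and by 4.42-fold in control oocytes (-1.97). Tgif1 was lower by 8.15-fold in deletion oocytes (-2.74) and by 3.30-fold in control oocytes (-1.60). These 3 genes were lower by the size rule in both genotypes, as were 2.21% of the 7383 genes that met the minimum in each of these comparisons. Gsc was lower by 8.61-fold in deletion oocytes (-2.72), while in control oocytes it had a difference of -0.81, or -0.27 with the trend on transcript GC content and length removed, and was not past the rule. All 4 lay below the diagonal in the plot of the change over growth, lower in deletion than in control oocytes. Ranked from the lowest difference, Id3 was gene 14, Tgif1 gene 19, Gsc gene 23 and Snai1 gene 35 of 7957 in deletion oocytes. In control oocytes Id3 was gene 9, Snai1 gene 13, Tgif1 gene 39 and Gsc gene 402 of 7661.

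**Figure D2:**
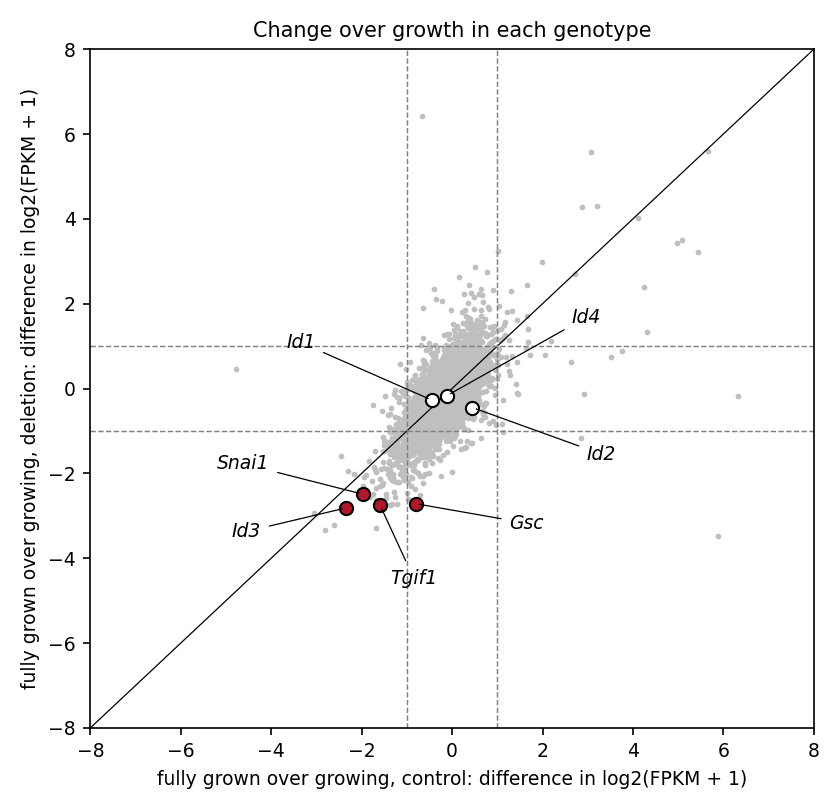
Difference in log2(FPKM + 1) between fully grown and growing oocytes in control (horizontal axis) and deletion (vertical axis), with 7383 genes at 5 FPKM or more in both comparisons in grey, the 4 genes among them filled red and Id1, Id2 and Id4 open. Dashed lines mark the size rule at -1 and 1, and the solid diagonal equal change, and 1 grey point lies outside the axes. Id3, Snai1 and Tgif1 lie past -1 on both axes and Gsc on the deletion axis only.

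The deletion comparisons ask how loss of Dcaf13 in the oocyte bears on these RNAs at each stage. In fully grown oocytes none of the 7 genes was higher or lower in deletion by the size rule, where the share over all genes at the minimum was 1.08% for higher and 1.09% for lower (80 and 81 genes, or 63 and 98 with median-ratio rescaling of the libraries). Tgif1 had the largest difference of the 3 genes at the minimum, at -0.83, or 50.3% of control, followed by Id3 at -0.60 and Snai1 at -0.037. Under the minimum, Id2 had a difference of -1.53 and stood at 21.1% of control.

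In growing oocytes Gsc was higher in deletion by the size rule, at 2.93-fold (a difference of 1.44), and it was the 1 gene of the 7 past the rule, where 2.62% of all genes were higher and 2.51% lower. Snai1 had a difference of 0.48, Tgif1 of 0.30 and Id3 of -0.12. Differences went with the GC content of the transcripts across genes in every comparison, with Spearman's rho of 0.39 in fully grown and 0.37 in growing deletion over control, and of -0.24 over growth in deletion and -0.31 in control oocytes. Transcript GC was 55.6% for Id3, 59.8% for Snai1, 48.6% for Tgif1 and 66.6% for Gsc. These values were above 79.7%, 95.4%, 39.6% and 99.8% of genes at 5 FPKM or more. With the trend on GC and length removed, the Gsc difference was 0.84 in growing oocytes, no longer past the rule. In fully grown oocytes it was -0.97, against -0.47 with the trend left in. Over all genes, trend removal in growing oocytes left 132 higher and 180 lower, against 210 and 201. The growing deletion library also enters the comparison over growth in deletion oocytes, so the Gsc results in both share its value of 23.4 FPKM. That comparison kept Gsc past the rule without the trend, at -2.01.

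**Figure D3:**
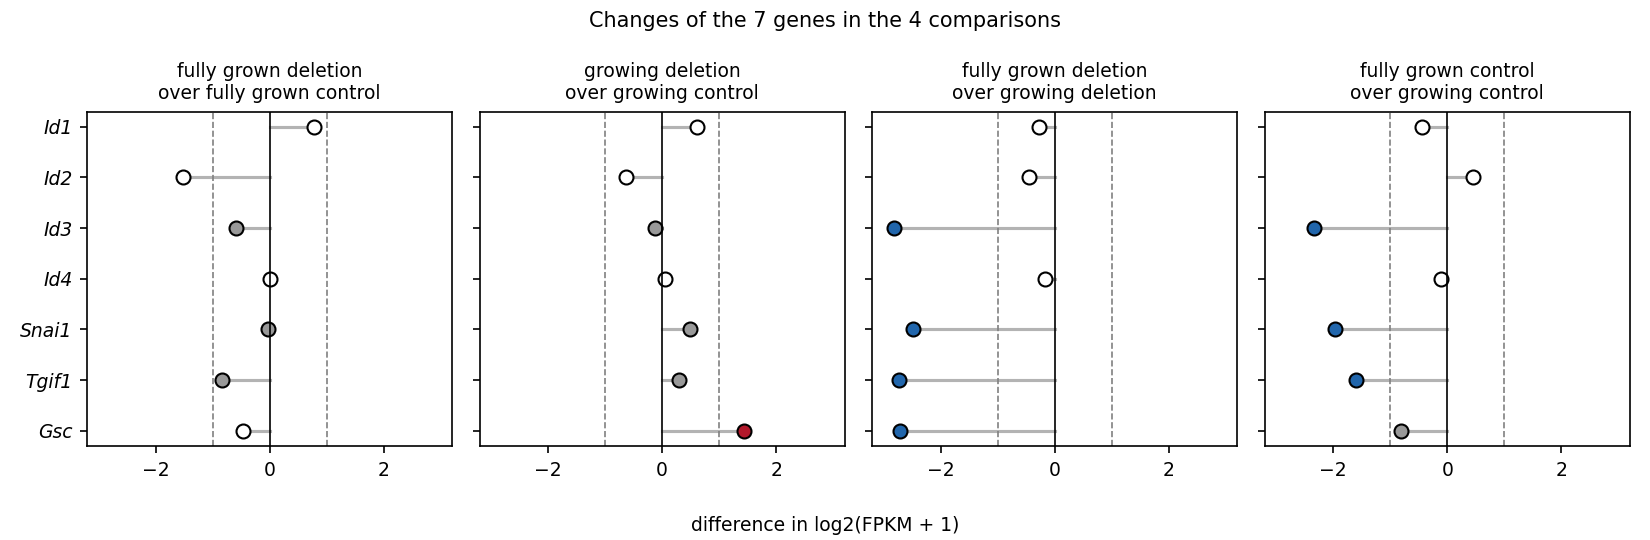
Difference in log2(FPKM + 1) of each of the 7 genes in the 4 comparisons, with the size rule dashed at -1 and 1. Filled blue and red points are lower and higher by the rule, grey points are not past it, and open points are genes under 5 FPKM in both libraries. All blue points lie in the comparisons over growth, and Gsc in growing deletion over growing control is the 1 red point.

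Neither comparison of deletion with control holds a replicate. The deletion effects at the 2 stages share no library, and Id1 was above and Id2 and Id3 below control in both of them. Snai1, Tgif1 and Gsc were above control in growing and below it in fully grown oocytes, where Snai1 was nearly level at -0.037.

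Genes of the same signalling pathway were read from lists by role. The ligand genes Gdf9 (2049 to 2815 FPKM over the 4 libraries) and Bmp15 (664 to 836 FPKM) were abundant in every library and past the rule in none of the comparisons. Among 8 measured ligands Bmp5, a BMP ligand, stood at 5.91 FPKM in growing deletion against 22.7 in growing control (-1.78), and at 20.1 in fully grown deletion against those 5.91 in growing deletion (1.61). Inha, which encodes the inhibin alpha subunit, stood at 2.16 FPKM in growing deletion (-1.25) and 2.40 in fully grown control (-1.15), against 6.53 in growing control. Inha is also on the granulosa marker list, whose summed level was 18.0 FPKM in growing deletion against 35.4 in growing control, and the part of granulosa RNA in the ligand and receptor results was not tested. The receptor genes Bmpr1b (13.5 to 23.7 FPKM), a type I BMP receptor, and Tgfbr3 (7.15 to 10.1 FPKM), a coreceptor, were the most abundant of 9 measured. Bmpr2, a type II receptor for BMP ligands and BMP15, stood at 3.03 FPKM in growing deletion against 7.92 in growing control (-1.15). Tgfbr1, a type I receptor of TGF-beta, stood at 2.26 FPKM in fully grown deletion against 6.07 in growing deletion (-1.12). No other ligand or receptor was past the rule. Per comparison, 6 or 7 ligands and 4 to 6 receptors met the minimum. The share of all genes past the rule was 1.08% to 8.75% per comparison and direction.

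None of the 5 measured SMAD genes, of which 3 or 4 met the minimum in each comparison, was past the rule in any. Over all genes at the minimum, 1.08% to 8.75% were past it per comparison and direction. With so few genes, none is near that share. Smad3 (24.7 to 30.8 FPKM) and the common partner Smad4 (14.0 to 17.6 FPKM) were the most abundant. Smad5, under 5 FPKM throughout and so outside the rule, stood at 3.74 FPKM in growing deletion against 1.22 in growing control (1.09). In fully grown deletion it stood at 0.904 FPKM against those 3.74 in growing deletion (-1.31). The median difference of the 5 SMAD genes was -0.046 over growth in deletion oocytes and -0.29 in control oocytes. Over the 11806 genes that reached 1 FPKM in any library it was -0.11 and -0.10. Of 8 measured inhibitors and modulators, Twsg1, which encodes the extracellular BMP-binding protein twisted gastrulation, was lower over growth in both genotypes. It stood at 1.39 FPKM in fully grown deletion against 10.5 in growing deletion (-2.27), and at 1.39 in fully grown control against 5.99 in growing control (-1.55). The SMAD corepressor gene Ski (54.5 to 90.3 FPKM) and the ubiquitin ligase gene Rnf111 (23.7 to 27.7 FPKM) were the most abundant and not past the rule.

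The E protein and oocyte helix-loop-helix genes, the class Id proteins act on, were read beside Id3. Figla, which encodes the oocyte factor that switches on zona pellucida genes from E-boxes, stood at 84.5 FPKM in fully grown deletion against 190.9 in growing deletion (-1.17). Tcf12, an E protein gene, stood at 1.97 FPKM against 5.04 in the same libraries (-1.02). These were the genes of the class past the rule in any comparison. Over growth in deletion oocytes, 8.75% of all genes at the minimum were lower by the rule. The 9 measured genes had a median difference of -0.91 over growth in deletion and -0.14 in control oocytes. Between deletion and control it was 0.026 in fully grown and 0.51 in growing oocytes. In the latter, 4 of the 9 met the minimum of 5 FPKM. Over all 11806 genes the same medians were -0.11, -0.10, 0.026 and 0.071. Of the 9 genes, 4 met the minimum of 5 FPKM over growth in deletion and 2 in control oocytes. With 5 in place of 1 added to FPKM, the medians over growth were -0.45 in deletion and -0.052 in control oocytes. With 0.1 added they were -1.17 and -0.41.

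Among 11 homeobox genes of the oocyte, the class of Tgif1 and Gsc, none was past the rule in any comparison. Obox2 (1090 to 2037 FPKM) and Obox5 (893 to 1475 FPKM) were the most abundant. Over all genes at the minimum, 1.08% to 8.75% were past the rule per comparison and direction. Pbx2 came nearest to it, at 9.12 FPKM in fully grown deletion against 4.08 in fully grown control (0.99). With 0.1 in place of 1 added to FPKM, 1 homeobox gene was higher in that comparison. With the same setting, 1 was lower over growth in control oocytes. Of the Snail and epithelial-mesenchymal genes, 3 of 11 were measured. Snai3, a paralog of Snai1, stood at 23.9 FPKM in fully grown deletion and 36.0 in fully grown control. In growing deletion it stood at 48.7 FPKM and in growing control at 36.7. It was past the rule in none of the comparisons, but only just short of it over growth in deletion oocytes (-0.997). With 0.1 in place of 1 added to FPKM, 1 gene of this list was lower there. Cdh1, which encodes E-cadherin and is a known Snai1 target in epithelial cells, stood between 17.03 and 24.0 FPKM. Cdh2, which encodes N-cadherin, stood at 3.55 FPKM in growing deletion against 10.0 in growing control (-1.28). The part of granulosa RNA in the Cdh2 result was not tested.

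**Figure D4:**
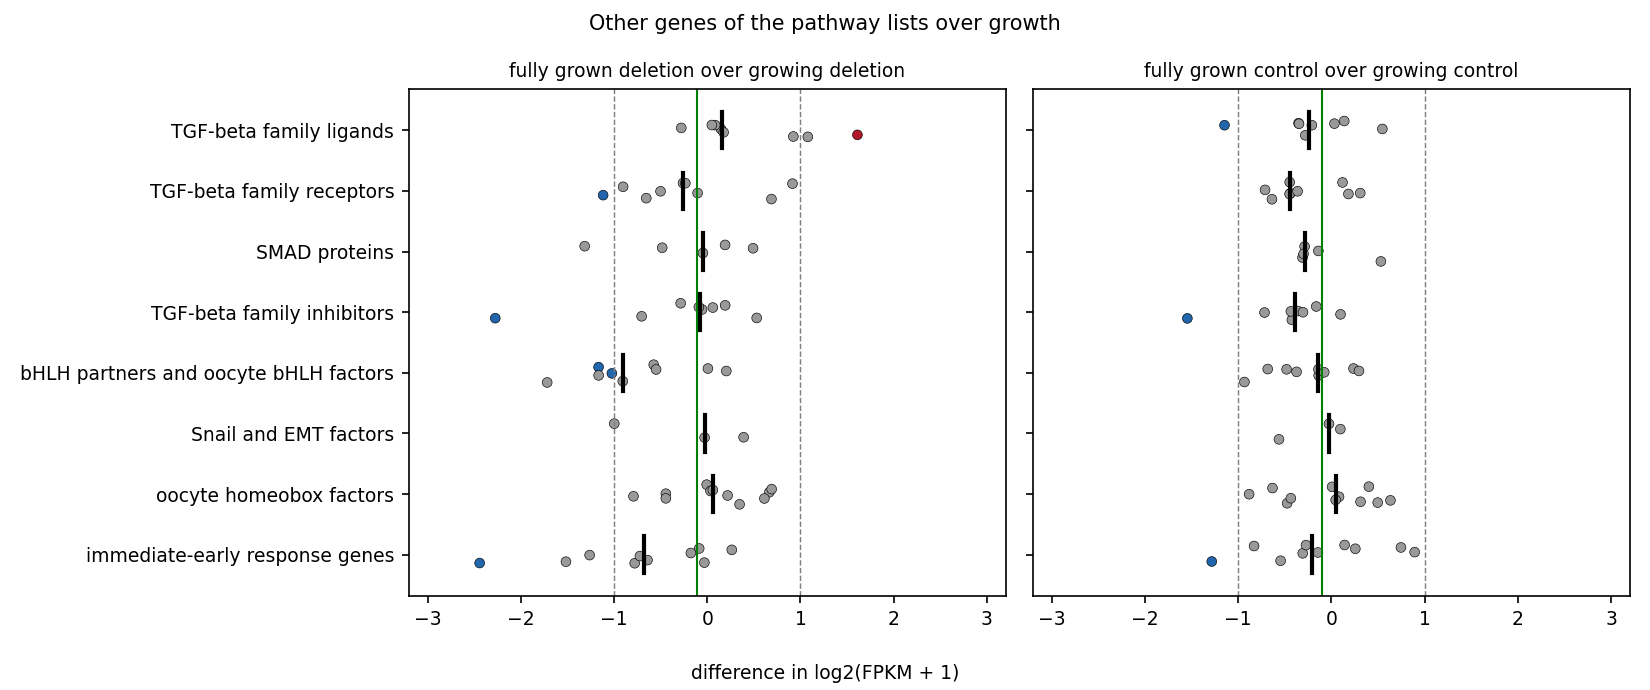
Difference in log2(FPKM + 1) over growth for the measured genes of 8 lists, in deletion (left) and control oocytes (right), with 1 point per gene. Blue and red points are lower and higher by the size rule, grey points past the dashed lines are under 5 FPKM in both libraries, black bars are list medians and the green line is the median of 11806 genes. Twsg1 among the inhibitors is lower in both panels (-2.27 and -1.55), and the helix-loop-helix median is -0.91 in deletion and -0.14 in control. Of the 9 genes behind that median, 4 reached 5 FPKM in the deletion comparison and 2 in the control comparison.

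Id genes and Snai1 are also made by follicle and stromal cells, so markers of other ovarian cells were read in the same libraries. The 14 granulosa markers summed to 29.6 FPKM in fully grown deletion and 27.9 in fully grown control, against 18.0 in growing deletion and 35.4 in growing control. The largest were Cyp19a1 (7.75 to 19.0 FPKM), the aromatase gene, and Nr5a2 (3.62 to 5.87 FPKM), and Inha ranged from 2.16 to 6.53 FPKM. Amh and Foxl2, picked after their values were seen, stood at 0.21 FPKM or less and 0.37 or less. At the fully grown stage Id3, Snai1, Tgif1 and Gsc had lower FPKM in both genotypes, while this sum was higher than at the growing stage in deletion oocytes and lower in control oocytes. The median difference of the 6 measured granulosa markers over growth was 0.39 in deletion oocytes, with 3 of 6 below 0, and -0.42 in control oocytes, with 5 of 6 below 0. In growing deletion over growing control their median was -0.45, beside 0.071 over all 11806 genes. Inha (-1.25) and Cyp19a1 (-1.10) were lower by the rule there, where 2.51% of all genes at the minimum were. None of the 10 theca and stroma markers reached 1 FPKM, with Dcn at most at 0.95 and Cyp11a1 at 0.69. The 7 endothelial markers summed to 14.2 to 21.4 FPKM, nearly all of it Pecam1 (11.6 to 18.7 FPKM) and Tek (1.178 to 2.08 FPKM). Cdh5, also picked after its values were seen, was listed at 0 in every library. The 8 blood and immune markers summed to 1.22 to 3.64 FPKM, most of it Cd68 (1.06 to 3.55 FPKM), with Cd3e at most at 0.32 FPKM. All 18 oocyte markers reached 1 FPKM in each library, led by H1foo (4236 to 5555 FPKM) and Dppa3 (3908 to 4907 FPKM). The part of other cells in the Id results was not tested.

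The genes whose 4 values were most like those of each member were looked up by the distance between their log2(FPKM + 1) values after removal of each gene's own mean, among 7360 named genes that reached 5 FPKM in any library. With 4 libraries such likeness is easily met and says nothing of shared control. Nearest to Id3 were Zfp707 (distance 0.38), the cysteine dioxygenase gene Cdo1 (0.49) and Tgif1 (0.53). Nearest to Snai1 were the zinc transporter gene Slc39a1 (0.17), Fxyd6 (0.19), which encodes a regulator of ion transport, and the cytokine gene Ctf1 (0.20). Nearest to Tgif1 were Lysmd2 (0.16), the calpastatin gene Cast (0.19) and Cdo1 (0.23). Nearest to Gsc were Scrn2 (0.19), Snapc2 (0.25), which encodes a subunit of the snRNA-activating complex, and Acaa1a (0.29), a peroxisomal thiolase gene. Scrn2 stood at 0.50 and 0.84 FPKM in fully grown deletion and control, against 8.29 in growing deletion and 2.02 in growing control, and it followed Gsc in being high in the growing deletion library. Among the 6 pairs of Id3, Snai1, Tgif1 and Gsc, the distance was smallest for Id3 and Tgif1 (0.53) and largest for Id3 and Gsc (1.38).

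**Figure D5:**
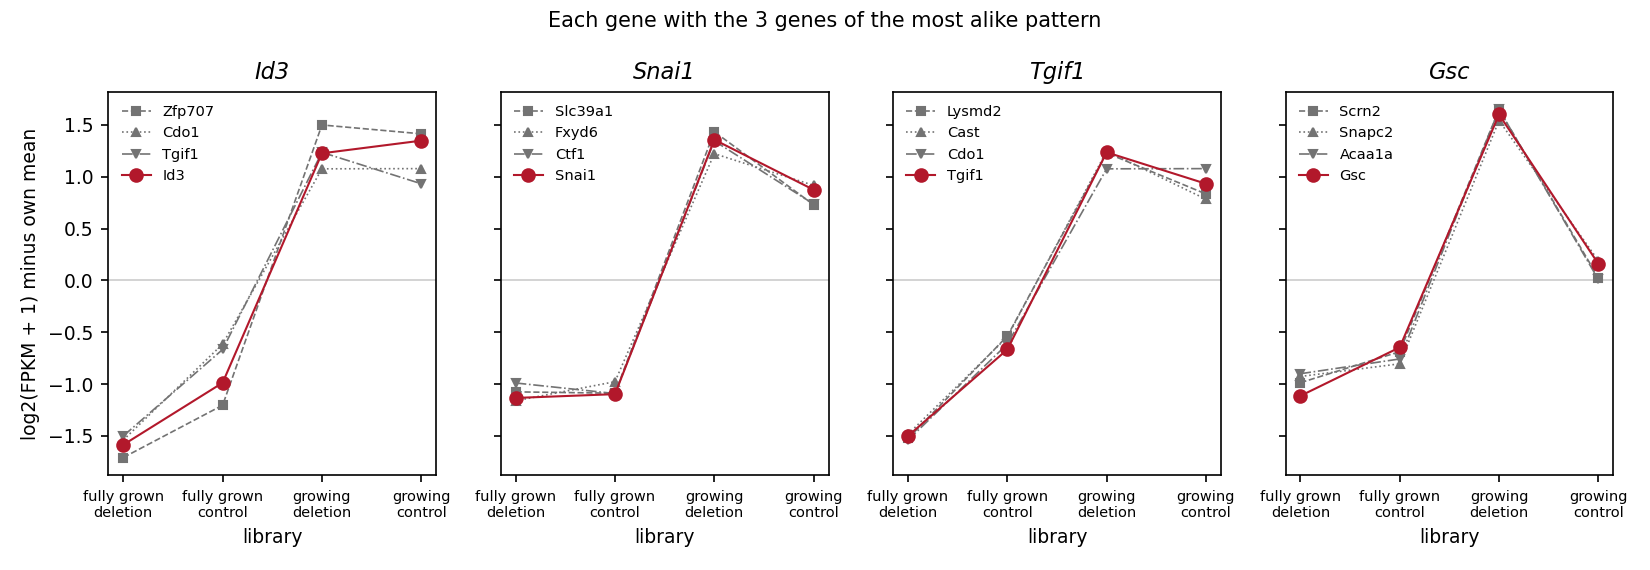
log2(FPKM + 1) minus each gene's own mean in the 4 libraries, for Id3, Snai1, Tgif1 and Gsc (red) and the 3 genes nearest to each (grey). Lines join points of 1 gene to guide the eye. The Snai1 panel is flat between the fully grown libraries, and the Gsc panel peaks in growing deletion.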

How the data were processed

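Polyadenylated RNA of 4 libraries of 10 oocytes was measured, and the deposited values are FPKM made by the authors. The submitters' processing notes list Cufflinks 2.2.1, Bowtie2 2.1.0, TopHat2 2.0.11, CASAVA 1.8 and build mm9, without roles or settings. The sources used here state no gene models, strand or filters. The 4 per-sample tables were identical to the series table. Symbols in byte order were joined to the value rows in file order, which gave 19122 of 23235 rows another symbol. This is an inference from the values and was not checked with the submitters. Depth is not stated. The most common ratio of low values put the libraries at 1.10 (fully grown deletion), 1.00 (fully grown control) and 1.04 (growing deletion) times the growing control.

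With 1 library per group no test was run. Differences in log2(FPKM + 1) and the size rule were computed with Python 3.11.15 and pandas 2.3.3. The code was checked on a copy of 1 library with large changes put in without noise. This check says nothing of the rule's error on single libraries. Transcript GC content and length, from GENCODE, were found for 98.04% of rows. The trend removed as an alternative was a quadratic in both. The other alternatives were pseudocounts of 0.1 and 5, an FPKM minimum of 10 or none, median-ratio rescaling and the deposited pairing. Genes named beside the 7 were the 3 of most like pattern and the pathway genes past the rule. Others were the 2 most abundant of each list and the 2 top markers per cell type. Smad5, Pbx2, Egr1, Amh, Foxl2, Cdh5, Fos and Jun were picked after their values were seen. The members and lists were chosen with earlier results of these data known. Protein sequences were not analysed here.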

Additional observations from a re-analysis of the deposited data

Results flagged for a closer look

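Snai1, Tgif1 and Gsc lay above control in the growing deletion library and below control in the fully grown deletion library. For Snai1 the fully grown libraries were nearly level, at 5.73 FPKM in deletion against 5.90 in control (-0.037). The deletion effect in fully grown minus that in growing oocytes was -0.52 for Snai1, -1.14 for Tgif1 and -1.91 for Gsc in log2(FPKM + 1). With 1 library per group this difference was not tested. Gsc was under 5 FPKM in both fully grown libraries.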

How the results depend on the processing

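No paired analysis was possible because each group has 1 library. The 3 genes lower over growth in control and the 4 lower in deletion oocytes were past the size rule under each pseudocount, minimum, rescaling and trend removal tried. Trend removal left Gsc at 0.84 in growing deletion over growing control, with 0 genes of the 7 higher. Without an FPKM minimum Id2 counted, as 1 gene lower in fully grown deletion oocytes. With the deposited pairing none of the calls on Id3, Snai1, Tgif1 and Gsc remained, while counts over all genes do not depend on the pairing. Growth differences in control oocytes were -0.11 for Id3, -0.026 for Snai1 and 0 for Tgif1, with -2.34 under the symbol Id2 and 1 gene lower. In deletion oocytes they were -0.17 for Id3, -0.997 for Snai1 and 0 for Tgif1 and Gsc, with 1 gene lower, and in growing deletion over control Gsc was at 0, with 0 genes higher.

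Counts over all genes, as higher and lower, were 80 and 81 in fully grown deletion over control, 210 and 201 in growing deletion over control, 215 and 696 over growth in deletion and 85 and 235 over growth in control. Without a minimum they were 143 and 133, 370 and 330, 355 and 1101, and 133 and 425, and with a pseudocount of 5 they were 23 and 39, 57 and 66, 99 and 267, and 53 and 53. With a minimum of 10 they were 43 and 59, 118 and 113, 138 and 422, and 59 and 131, and trend removal gave 132 and 180 in growing deletion over control. The cause was not tested.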

Other observations

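Immediate-early response genes answer signals and handling within minutes. Of the 25 listed, 10 stood at 1 FPKM or more in any library, where 11806 of all 23235 genes did. Dusp1, which encodes a MAP kinase phosphatase, was the most abundant, at 18.4 FPKM in fully grown deletion and 24.3 in fully grown control, against 31.0 in growing deletion and 29.5 in growing control. Ier2 was the 1 gene of the list past the size rule, and it was lower over growth in both genotypes. It stood at 1.05 FPKM in fully grown deletion against 10.2 in growing deletion (-2.44), and at 2.50 in fully grown control against 7.51 in growing control (-1.28). Fos and Jun stood at 0.23 FPKM or less in every library, while Egr1 stood between 3.79 and 5.99 FPKM. Fos, Jun and Egr1 were picked after their values were seen. The list's median difference over growth was -0.68 in deletion and -0.21 in control oocytes, beside -0.11 and -0.10 over all genes at 1 FPKM or more in any library. Of its 10 measured genes, 3 reached 5 FPKM in each of these comparisons. With a pseudocount of 5 the list's medians were -0.33 in deletion and -0.077 in control oocytes, and with 0.1 they were -0.81 and -0.29.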
